A study of Mus musculus with 6 samples.

Results

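The insulin-like growth factor (IGF) family examined here consisted of 10 genes, namely the ligands *Igf1* and *Igf2*, the receptors *Igf1r* and *Igf2r*, and the binding proteins *Igfbp2*, *Igfbp3*, *Igfbp4*, *Igfbp5*, *Igfbp6* and *Igfbp7*. They were taken by gene symbol from a table of 31613 genes, and all 10 passed the filter on low counts, as did 16519 genes in all. IGF-I and IGF-II are secreted peptides that act through the IGF-I receptor, a tyrosine kinase that signals through the insulin receptor substrates to PI3K and AKT and also to the MAP kinases. The IGF-II receptor, which is also the mannose 6-phosphate receptor, has no kinase and carries IGF-II to lysosomes. Most IGF in tissue is held by binding proteins, which limit or prolong its access to the receptor until proteases cleave them. In teeth the IGFs are known as growth and differentiation factors for the papilla mesenchyme and its odontoblasts, the cells that lay down dentin.

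RNA was sequenced from mouse dental papilla cells (mDPCs) of the first mandibular molar at postnatal day 6, as 3 libraries of the *Dmp1*-Cre;*Setd2* fl/fl group and 3 of controls. In *Dmp1*-Cre;*Setd2* fl/fl mice a Cre transgene under the *Dmp1* promoter, which is active in the odontoblast layer, deletes the floxed *Setd2* gene, which encodes the enzyme that trimethylates lysine 36 of histone H3. The controls carry the floxed alleles without Cre according to the study's methods and are called wild type in the sample labels. Both groups were on the C57BL/6J background, and each library was made from pooled RNA of several animals, so the spread between libraries is a spread between pools. The study states 3 biological replicates per pool and lists 6 mice of each genotype for this collection. It does not state which animals entered which pool. What counted as a replicate is not stated either. If each was a separate animal, 6 mice are too few for 3 pools with no animal in common. The libraries of a genotype would then not be independent, and p-values would understate the spread between animals. If not, whether pools shared animals cannot be told. The comparison asks which transcripts of the papilla depend on *Setd2* in *Dmp1*-Cre cells.

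The libraries held 18557647 to 19210750 counts. *Setd2* itself was at 102, 98.5 and 96.0 CPM in *Dmp1*-Cre;*Setd2* fl/fl libraries, against 98.0, 96.5 and 92.0 CPM in controls. CPM are counts scaled to a common library size. The count covers the whole gene in every cell collected, so it does not check the genotype. The 10 papilla mesenchyme markers had a summed level of 1317 to 1414 CPM in *Dmp1*-Cre;*Setd2* fl/fl libraries, against 1168 to 1364 CPM in controls. The summed level of 10 odontoblast markers was 10515, 8007 and 55971 CPM for replicates 1, 2 and 3 of the *Dmp1*-Cre;*Setd2* fl/fl group, against 98196, 99296 and 115100 CPM in controls. Of these 10, 7 were called lower at the thresholds of the study given with the family results. *Col1a1* and *Col1a2* made up most of these sums, at 4855 and 4356 CPM in *Dmp1*-Cre;*Setd2* fl/fl replicate 1, against 54159 and 26333 CPM in control replicate 1. Replicate 3 of the *Dmp1*-Cre;*Setd2* fl/fl group stood apart from replicates 1 and 2 on the sum. It did not on every marker, as *Sp7* was at 195, 150 and 172 CPM in replicates 1, 2 and 3. Replicate 3 of both groups also stood apart on markers of other cells. Markers of dental epithelium and ameloblasts, the enamel-forming cells that lie against the odontoblasts, summed to 7148, 2226 and 50079 CPM in *Dmp1*-Cre;*Setd2* fl/fl libraries, against 7381, 2749 and 30362 CPM in controls. Results for which these libraries matter are therefore given with and without them. In these bulk samples, a change in the number of cells of a type and a change in RNA per cell cannot be told apart.

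Promoter sequence is shown for 3 binding protein genes on which the results turn. *Igfbp2* and *Igfbp3* varied most between libraries, and *Igfbp6* was the member called different between genotypes. Each line gives 250 bases before to 50 bases after a RefSeq transcription start on the coding strand in GRCm38.p6. These windows are at chr1:72824230-72824529 on the plus strand for *Igfbp2*, chr11:7213874-7214173 on the minus strand for *Igfbp3* and chr15:102143936-102144235 on the plus strand for *Igfbp6*. Gene positions in the deposited table match this build better than GRCm39, though only in part. Of the 10 members, 7 share a start or end with it. The *Igfbp6* window ends before the deposited start of that gene, at 102144362. Capitals mark the motifs searched on both strands, the TATA box (TATAAA, or TTTATA on the other strand), the GC box (GGGCGG or CCGCCC) and the CCAAT box (CCAAT or ATTGG).
Igfbp2: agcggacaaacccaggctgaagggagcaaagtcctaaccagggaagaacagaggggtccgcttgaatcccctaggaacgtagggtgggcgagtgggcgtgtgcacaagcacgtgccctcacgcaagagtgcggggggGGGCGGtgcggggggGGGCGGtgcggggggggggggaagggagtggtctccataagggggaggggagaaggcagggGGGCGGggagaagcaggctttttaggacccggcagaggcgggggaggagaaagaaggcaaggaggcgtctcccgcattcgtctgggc
Igfbp3: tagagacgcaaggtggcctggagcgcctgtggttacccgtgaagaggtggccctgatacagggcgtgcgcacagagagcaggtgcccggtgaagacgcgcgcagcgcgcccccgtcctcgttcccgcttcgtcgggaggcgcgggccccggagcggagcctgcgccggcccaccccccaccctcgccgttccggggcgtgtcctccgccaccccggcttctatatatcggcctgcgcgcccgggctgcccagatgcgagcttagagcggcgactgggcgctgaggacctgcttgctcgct
Igfbp6: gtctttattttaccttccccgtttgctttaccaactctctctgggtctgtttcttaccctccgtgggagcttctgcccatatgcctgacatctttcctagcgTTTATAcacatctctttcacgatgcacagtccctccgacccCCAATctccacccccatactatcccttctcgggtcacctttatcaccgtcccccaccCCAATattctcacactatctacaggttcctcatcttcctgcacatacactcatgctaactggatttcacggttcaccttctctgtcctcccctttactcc
The *Igfbp2* window, at 67.0% G and C, held 3 GC boxes. The *Igfbp3* window, at 71.7% G and C, held none of the 3 motifs. The *Igfbp6* window, at 49.7% G and C, held 1 TATA box on the other strand and 2 CCAAT boxes. RefSeq gave 14 promoter windows for the 10 members, since *Igf2* and *Igfbp2* have several starts. A TATA box was found in 2 of the 14 windows (13.6% of 32851 mouse promoters), a GC box in 6 (35.7% of all) and a CCAAT box in 3 (37.4% of all). Such matches describe the letters only.

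Of the 10 members, 1 was called higher and 0 were called lower in *Dmp1*-Cre;*Setd2* fl/fl papillae at the study's thresholds, which ask for p under 0.05 before adjustment and for log2 fold changes of 0.58 or more in either direction. Over all genes tested, 1.1% were called higher and 2.71% lower by the same rule. The member called was *Igfbp6*. At an adjusted p under 0.05 in edgeR's quasi-likelihood test, 0 members and 0.0% of all genes passed, while 523 genes were higher and 729 lower at an unadjusted p under 0.05, and DESeq2 called 139 genes at an adjusted p under 0.05 but no member. The log2 fold change was positive for 8 of 10 members (80.0%), against 52.6% of all genes, with a median of 0.23 over the members and 0.02 over all genes. *Igfbp6* was also the only member whose groups did not overlap. All 3 *Dmp1*-Cre;*Setd2* fl/fl libraries lay above all 3 controls for 7.26% of genes tested, and below them for 7.98%.

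**Figure D1:**
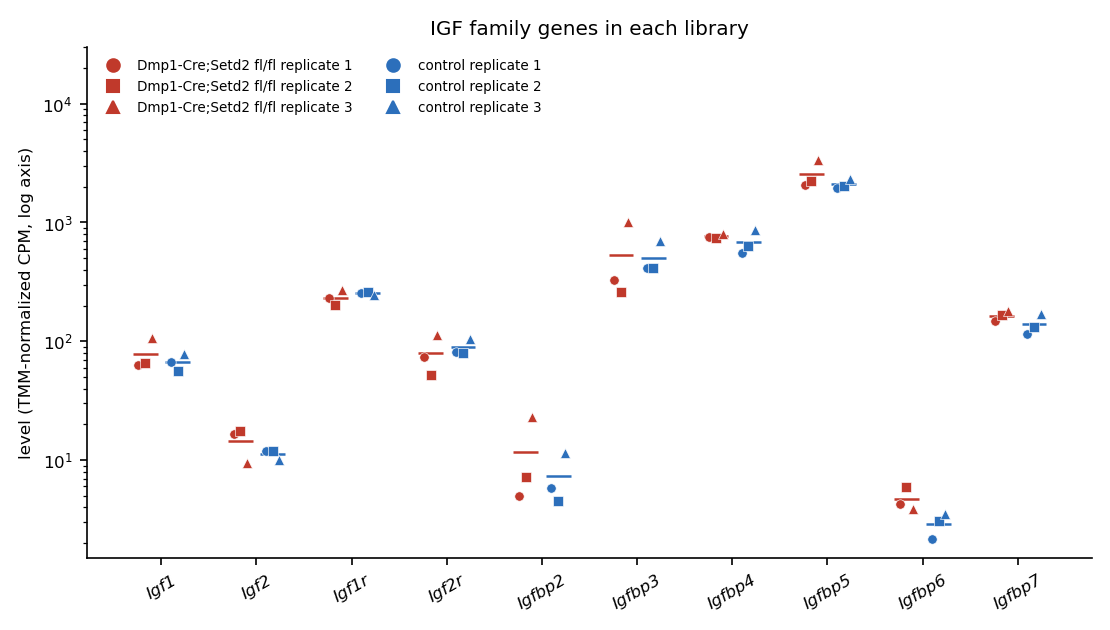
Level of each IGF family gene in each library, in CPM on a log axis, with Dmp1-Cre;Setd2 fl/fl libraries (red) left of controls (blue). Symbols give the replicate number and horizontal lines the group means (n = 3 libraries each). The groups overlap for every gene except Igfbp6, and the triangles of replicate 3 stand above the other replicates of both groups for Igfbp2 and Igfbp3.

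Levels of different genes were compared as CPM per kilobase of exon. The order from highest to lowest was the same in both groups, namely *Igfbp5*, *Igfbp4*, *Igfbp3*, *Igfbp7*, *Igf1r*, *Igf2r*, *Igf1*, *Igfbp2*, *Igfbp6* and *Igf2*. *Igfbp5* averaged 425 CPM per kilobase in *Dmp1*-Cre;*Setd2* fl/fl libraries (range 345 to 557), against 349 in controls (range 325 to 386), and stood clear of *Igfbp4* below it in both groups. *Igfbp4* and *Igfbp3* overlapped with each other in both groups. *Igfbp7* stood clear of its neighbours on either side, at a mean of 30.1 CPM per kilobase in *Dmp1*-Cre;*Setd2* fl/fl libraries, against 25.6 in controls. From *Igf1r* down to *Igf2*, the ranges of neighbours overlapped throughout in *Dmp1*-Cre;*Setd2* fl/fl libraries. In controls *Igf1r*, *Igf2r* and *Igf1* were separate from one another, and *Igf1*, *Igfbp2*, *Igfbp6* and *Igf2* each overlapped with the next. *Igf2* was last, with means of 2.37 CPM per kilobase in *Dmp1*-Cre;*Setd2* fl/fl libraries, against 1.84 in controls. Its last place depended on the division by exon length. Undivided means were 14.6 CPM for *Igf2*, 11.7 for *Igfbp2* and 4.68 for *Igfbp6* in *Dmp1*-Cre;*Setd2* fl/fl libraries, against 11.3, 7.29 and 2.91 in controls.

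Both ligands were expressed, and neither was called different between genotypes. *Igf1*, the ligand that mediates much of the action of growth hormone after birth, lies on chromosome 10 (87858265 to 87937042) and was at 63.1, 65.5 and 107 CPM in *Dmp1*-Cre;*Setd2* fl/fl libraries, against 67.2, 56.5 and 78.9 CPM in controls. The groups overlapped, and replicate 3 was the highest library of each. The log2 fold change was 0.22 (SE 0.23, 95% interval -0.33 to 0.77, edgeR adjusted p = 0.817), and it was -0.07 without *Dmp1*-Cre;*Setd2* fl/fl replicate 3. It was 0.06 without replicate 3 of both groups and 0.19 with replicate number as a block (edgeR unadjusted p = 0.617 and 0.147). *Igf2*, an imprinted gene expressed from the paternal copy and best known as a growth factor of the embryo, lies on chromosome 7 (142650766 to 142666816). *Igf2* was at 16.7, 17.7 and 9.50 CPM in *Dmp1*-Cre;*Setd2* fl/fl libraries, against 11.9, 12.0 and 10.0 CPM in controls. Replicates 1 and 2 of the *Dmp1*-Cre;*Setd2* fl/fl group lay above every control, and replicate 3 lay below every control. With all libraries the log2 fold change of *Igf2* was 0.37 (SE 0.25, 95% interval -0.23 to 0.96, edgeR adjusted p = 0.726).

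Without *Dmp1*-Cre;*Setd2* fl/fl replicate 3, *Igf2* was called higher at the study's thresholds, at a log2 fold change of 0.60 (unadjusted p = 0.00601, edgeR adjusted p = 0.1004). In that fit 4.01% of all genes were called higher and 6.88% lower. An antisense transcript, *Igf2os*, overlaps *Igf2* and gave 198, 201 and 59 counts in *Dmp1*-Cre;*Setd2* fl/fl libraries, against 116, 114 and 81 counts in controls. Reads were counted without regard to strand, so the reads of *Igf2* and *Igf2os* cannot be told apart where they overlap. The *Igf2* to *Igf1* ratio, per kilobase, came to 0.439, 0.447 and 0.147 in *Dmp1*-Cre;*Setd2* fl/fl libraries, against 0.295, 0.353 and 0.211 in controls. The groups overlapped (exact two-sided permutation test, p = 0.6, where the smallest p that 3 against 3 libraries allow is 0.1). The lowest value of each group was that of replicate 3.

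With all libraries, neither receptor differed detectably between genotypes. *Igf1r*, on chromosome 7 (67952827 to 68233668), was at 230, 202 and 268 CPM in *Dmp1*-Cre;*Setd2* fl/fl libraries, against 256, 259 and 246 CPM in controls. The controls lay close together inside the wider range of the *Dmp1*-Cre;*Setd2* fl/fl libraries. *Igf1r* had a log2 fold change of -0.12 (SE 0.13, edgeR adjusted p = 0.819), and its 95% interval, -0.42 to 0.19, was the narrowest of the 10 members and stayed inside the fold threshold of the study. *Igf2r*, on chromosome 17 (12682406 to 12769664), was at 73.9, 52.2 and 113 CPM in *Dmp1*-Cre;*Setd2* fl/fl libraries, against 81.4, 79.5 and 105 CPM in controls. The groups overlapped and replicate 3 was the highest library of each. *Igf2r* had a log2 fold change of -0.15 (SE 0.28, 95% interval -0.82 to 0.51, edgeR adjusted p = 0.902), and it was 0.08 without *Dmp1*-Cre;*Setd2* fl/fl replicate 2. Without replicate 3 of that group it was -0.49 (edgeR unadjusted p = 0.0328, adjusted p = 0.203), short of the fold threshold. *Airn*, the antisense transcript that silences the paternal *Igf2r* copy in mouse tissues, overlaps it and gave 153 to 247 counts in *Dmp1*-Cre;*Setd2* fl/fl libraries, against 184 to 300 in controls. The *Igf1r* to *Igf2r* ratio per kilobase came to 1.47, 1.84 and 1.12 in *Dmp1*-Cre;*Setd2* fl/fl libraries, against 1.49, 1.54 and 1.11 in controls (exact two-sided permutation test, p = 0.9).

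**Figure D2:**
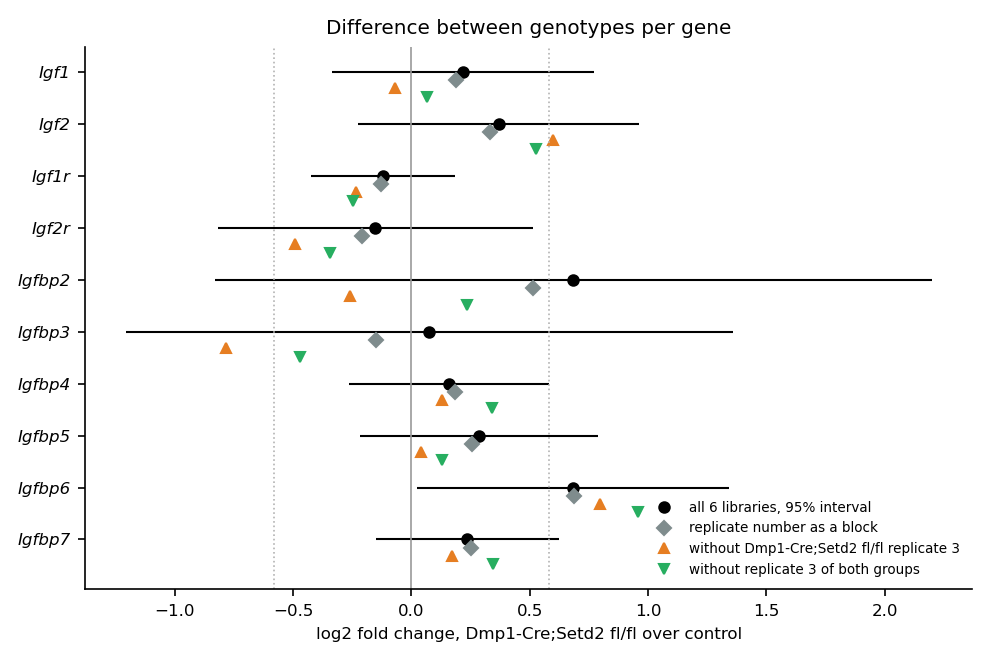
Log2 fold change of each IGF family gene, Dmp1-Cre;Setd2 fl/fl over control, from edgeR with all 6 libraries (black, with the 95% interval) and from 3 alternative fits (points without intervals). Dotted lines mark a log2 fold change of 0.58 in either direction. Only the interval of Igfbp6 lies wholly above 0, and the intervals of Igfbp2 and Igfbp3 are the widest.

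*Igfbp6*, which binds IGF-II in preference to IGF-I, was expressed at a low level and was called higher in *Dmp1*-Cre;*Setd2* fl/fl papillae before adjustment only. It lies on chromosome 15 (102144362 to 102149511) and was at 4.26, 5.89 and 3.91 CPM in *Dmp1*-Cre;*Setd2* fl/fl libraries, against 2.18, 3.05 and 3.52 CPM in controls. The lowest *Dmp1*-Cre;*Setd2* fl/fl library lay just above the highest control, and both of these were replicate 3. These levels rested on 89, 111 and 72 counts in *Dmp1*-Cre;*Setd2* fl/fl libraries, against 41, 58 and 62 counts in controls. The log2 fold change of *Igfbp6* was 0.68 (SE 0.28, 95% interval 0.02 to 1.34, unadjusted p = 0.0438, edgeR adjusted p = 0.650). It was 0.94, 0.92 and 0.15 between libraries of the same replicate number, for numbers 1, 2 and 3. The call was lost in edgeR without replicate 1 (0.75, unadjusted p = 0.0650) or replicate 2 (0.49, unadjusted p = 0.136) of the *Dmp1*-Cre;*Setd2* fl/fl group, and without replicate 1 (0.51, unadjusted p = 0.142) or replicate 2 (0.72, unadjusted p = 0.0906) of the controls. With replicate 3 of both groups left out, the log2 fold change of *Igfbp6* was 0.96 (unadjusted p = 0.00603, edgeR adjusted p = 0.0697). It was then again the only member called, beside 4.49% of all genes called higher and 7.55% lower. In that fit *Igf2* (0.53), *Igfbp7* (0.35) and *Igfbp4* (0.34) were short of the fold threshold. Their edgeR unadjusted p were 0.00470, 0.0209 and 0.0455, and *Igfbp3*, given below, was lower. The call of *Igfbp6* held in a fit with replicate number as a block (0.69, edgeR unadjusted p = 0.0179), and that fit called 2.05% of all genes higher and 4.37% lower. *Soat2*, the nearest gene, starts 1015 bases beyond the end of *Igfbp6* and gave 7 to 33 counts in *Dmp1*-Cre;*Setd2* fl/fl libraries, against 9 to 19 in controls.

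*Igfbp3*, the main carrier of IGF in serum, gave no stable direction between genotypes. It lies on chromosome 11 (7206086 to 7213923) and was at 328, 262 and 1013 CPM in *Dmp1*-Cre;*Setd2* fl/fl libraries, against 411, 413 and 698 CPM in controls. Replicates 1 and 2 of the *Dmp1*-Cre;*Setd2* fl/fl group lay below every control, and replicate 3 lay above every control. With all libraries, its log2 fold change was 0.08 (SE 0.54, 95% interval -1.21 to 1.36, edgeR adjusted p = 0.980). Blocking by replicate number, it was -0.15 (edgeR unadjusted p = 0.535). Without *Dmp1*-Cre;*Setd2* fl/fl replicate 3, *Igfbp3* was called lower at a log2 fold change of -0.78 (unadjusted p = 0.0201, edgeR adjusted p = 0.170). Leaving replicate 3 out of both groups gave -0.47 (edgeR unadjusted p = 0.0107), short of the fold threshold. Its variation between libraries of a group, estimated by edgeR as a biological coefficient of variation of 45.6%, was above that of 93.9% of all genes tested.

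*Igfbp2*, a binding protein abundant in fetal tissues, varied still more. It lies on chromosome 1 (72824503 to 72852474) and was at 5.02, 7.16 and 23.0 CPM in *Dmp1*-Cre;*Setd2* fl/fl libraries, against 5.84, 4.53 and 11.5 CPM in controls. The groups overlapped, and replicate 3 was the highest library of each. *Igfbp2* had a log2 fold change of 0.68 (SE 0.63, 95% interval -0.83 to 2.198, edgeR adjusted p = 0.787), close to that of *Igfbp6*, but with an SE more than 2 times as large. Without *Dmp1*-Cre;*Setd2* fl/fl replicate 3 alone it was -0.26. Leaving replicate 3 out of both groups gave 0.24, and the block for replicate number gave 0.51 for *Igfbp2* (edgeR unadjusted p = 0.354 and 0.0596). Its biological coefficient of variation, 53.5%, was above that of 96.2% of genes tested.

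*Igfbp5*, *Igfbp4* and *Igfbp7* had lower biological coefficients of variation in edgeR than the other binding proteins, at 21.2%, 18.9% and 17.8%, and none was called in either direction. *Igfbp5*, which binds to the extracellular matrix and is abundant in bone, lies on chromosome 1 (72857932 to 72874884), 5458 bases from *Igfbp2* and on the opposite strand. *Igfbp5* was at 2075, 2237 and 3345 CPM in *Dmp1*-Cre;*Setd2* fl/fl libraries, against 1950, 2013 and 2319 CPM in controls. Each *Dmp1*-Cre;*Setd2* fl/fl library was above the control of the same number, though the groups overlapped, and the log2 fold change was 0.29 (SE 0.21, 95% interval -0.22 to 0.79, edgeR adjusted p = 0.738). It was 0.04 without *Dmp1*-Cre;*Setd2* fl/fl replicate 3, 0.13 without replicate 3 of both groups and 0.26 with replicate number as a block (edgeR unadjusted p = 0.809, 0.480 and 0.170). *Igfbp4*, which holds IGF away from its receptor until pregnancy-associated plasma protein A cleaves it, lies on chromosome 11 (99041244 to 99054392). *Igfbp4* was at 758, 742 and 793 CPM in *Dmp1*-Cre;*Setd2* fl/fl libraries, against 557, 632 and 867 CPM in controls. Here the *Dmp1*-Cre;*Setd2* fl/fl libraries were the even group and the controls the spread one, and the log2 fold change was 0.16 (SE 0.18, 95% interval -0.26 to 0.58, edgeR adjusted p = 0.828). *Igfbp7*, which binds IGFs with low affinity and is known from the walls of blood vessels, lies on chromosome 5 (77349240 to 77408041). *Igfbp7* was at 147, 167 and 179 CPM in *Dmp1*-Cre;*Setd2* fl/fl libraries, against 116, 132 and 170 CPM in controls. Only control replicate 3 reached into the range of the *Dmp1*-Cre;*Setd2* fl/fl libraries, and the log2 fold change was 0.24 (SE 0.16, 95% interval -0.15 to 0.62, edgeR adjusted p = 0.726). For *Igfbp7* too, each *Dmp1*-Cre;*Setd2* fl/fl library was above the control of the same number. With the block its log2 fold change was 0.25 (edgeR unadjusted p = 0.0433, adjusted p = 0.276), short of the fold threshold. The gene *Polr2b* overlaps the end of *Igfbp7* on the opposite strand, with 1208 to 1568 counts in *Dmp1*-Cre;*Setd2* fl/fl libraries, against 1220 to 1410 in controls.

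No difference between genotypes was detectable in the make-up of the binding protein transcripts. *Igfbp5* made up 53.9, 57.1 and 52.2% of the summed level of the 6 Igfbp genes per kilobase in *Dmp1*-Cre;*Setd2* fl/fl libraries, against 54.9, 53.8 and 47.3% in controls. *Igfbp4* made up 26.7, 25.7 and 16.8% in *Dmp1*-Cre;*Setd2* fl/fl libraries, against 21.3, 23.0 and 24.0% in controls. *Igfbp3* made up 14.4, 11.3 and 26.6% in *Dmp1*-Cre;*Setd2* fl/fl libraries, against 19.5, 18.6 and 24.0% in controls. The share of *Igfbp3* was thus lowest in replicates 1 and 2 and highest in replicate 3 of the *Dmp1*-Cre;*Setd2* fl/fl group, and that of *Igfbp4* ran the other way. *Igfbp7* held 3.07 to 4.69% in *Dmp1*-Cre;*Setd2* fl/fl libraries, against 3.61 to 3.89% in controls, and *Igfbp2* and *Igfbp6* held at most 1.04% and 0.654% in any library. The groups overlapped for all 6 shares, with exact two-sided permutation p of 0.4 to 1.0 (the smallest possible is 0.1). The summed Igfbp level came to 641, 652 and 1067 CPM per kilobase in *Dmp1*-Cre;*Setd2* fl/fl libraries, against 592, 623 and 817 in controls (exact two-sided permutation p = 0.5). The ratio of this level to the summed level of both ligands came to 72.3, 70.4 and 88.9 in *Dmp1*-Cre;*Setd2* fl/fl libraries, against 69.6, 83.4 and 87.5 in controls (exact two-sided permutation p = 1.0). The summed level of both ligands was 8.87, 9.27 and 12.0 CPM per kilobase in *Dmp1*-Cre;*Setd2* fl/fl libraries, against 8.50, 7.47 and 9.34 in controls (exact two-sided permutation p = 0.3). All of these are levels and ratios of transcripts, not of proteins. Adjusting the 11 permutation p-values of these shares, sums and ratios, with the 2 ratios given above, together could only raise them.

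**Figure D3:**
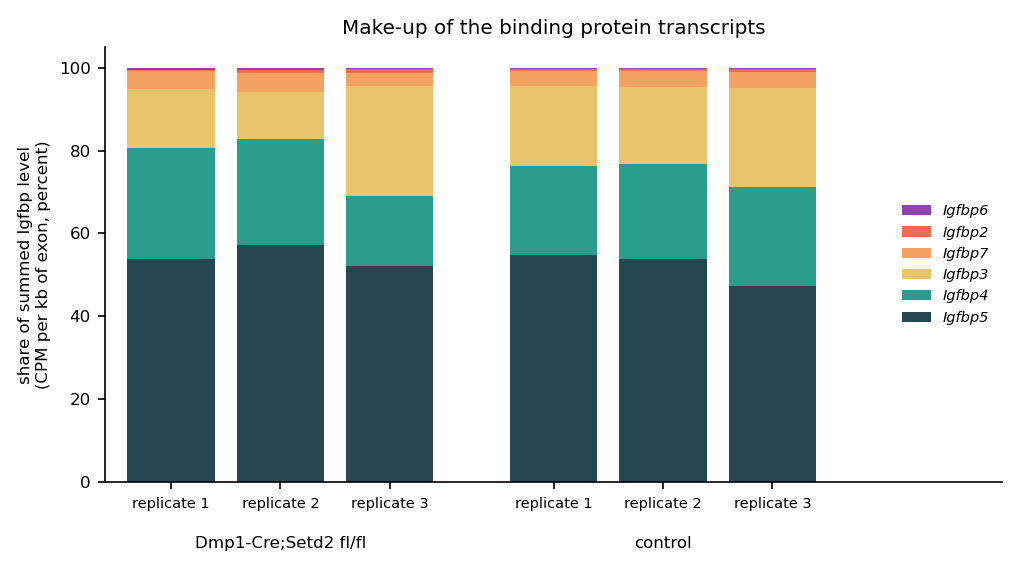
Share of each binding protein gene in the summed Igfbp level (CPM per kilobase of exon, in percent) in each of the 6 libraries, with Dmp1-Cre;Setd2 fl/fl libraries left of controls. Igfbp5 holds 47.3 to 57.1% of every bar, and the Igfbp3 segment is largest in replicate 3 of each group.

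Replicate 3 was set apart from the other libraries of its own group in most of the family, in both genotypes. It was the highest of its group in both genotypes for 7 of 10 members (70.0%), against 29.7% of all genes tested, and the lowest in both for 1 member (10.0%), against 27.7%. The 7 were *Igf1*, *Igf2r*, *Igfbp2*, *Igfbp3*, *Igfbp4*, *Igfbp5* and *Igfbp7*, and the exception in the other direction was *Igf2*. For *Igfbp2*, replicate 3 minus the mean of replicates 1 and 2 was 1.92 on the log2 CPM scale in *Dmp1*-Cre;*Setd2* fl/fl libraries, against 1.15 in controls. For *Igfbp3* this difference was 1.79 in *Dmp1*-Cre;*Setd2* fl/fl libraries, against 0.76 in controls. Smaller differences were seen for *Igf2r* (0.87 in *Dmp1*-Cre;*Setd2* fl/fl libraries, against 0.39 in controls) and *Igf1* (0.73 in *Dmp1*-Cre;*Setd2* fl/fl libraries, against 0.36 in controls). *Igf2* ran the other way, at -0.85 in *Dmp1*-Cre;*Setd2* fl/fl libraries, against -0.25 in controls. For these 5 genes the difference was larger in size in the *Dmp1*-Cre;*Setd2* fl/fl group. For *Igfbp4* and *Igfbp7* it was smaller there, at 0.08 and 0.19 in *Dmp1*-Cre;*Setd2* fl/fl libraries, against 0.55 and 0.45 in controls. These differences have 1 library on one side and were not tested.

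Markers of other cells also set replicate 3 apart. Of 10 markers of dental epithelium and ameloblasts, 8 were highest in replicate 3 of both groups. Of 8 endothelial markers 7 were, with sums of 324, 351 and 799 CPM in *Dmp1*-Cre;*Setd2* fl/fl libraries, against 325, 356 and 501 CPM in controls. Of 8 macrophage markers, 6 were lowest in replicate 3 of both groups, with sums of 1189, 1374 and 534 CPM in *Dmp1*-Cre;*Setd2* fl/fl libraries, against 887, 996 and 707 CPM in controls. Of 10 papilla mesenchyme markers, 4 were highest in replicate 3 of both groups, and their sums did not set it apart. All 5 tested neutrophil markers were lowest in replicate 3 of both groups. Their list summed to 67.3, 134 and 5.16 CPM in *Dmp1*-Cre;*Setd2* fl/fl libraries, against 20.5, 11.7 and 4.37 CPM in controls. Among 5 tested dental follicle and bone markers, 4 were highest in replicate 3 of both groups. The epithelial and endothelial sums thus ran in the direction of *Igfbp2* and *Igfbp3*, and the macrophage and neutrophil sums in that of *Igf2*. Their part in the levels of these genes was not tested.

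**Figure D4:**
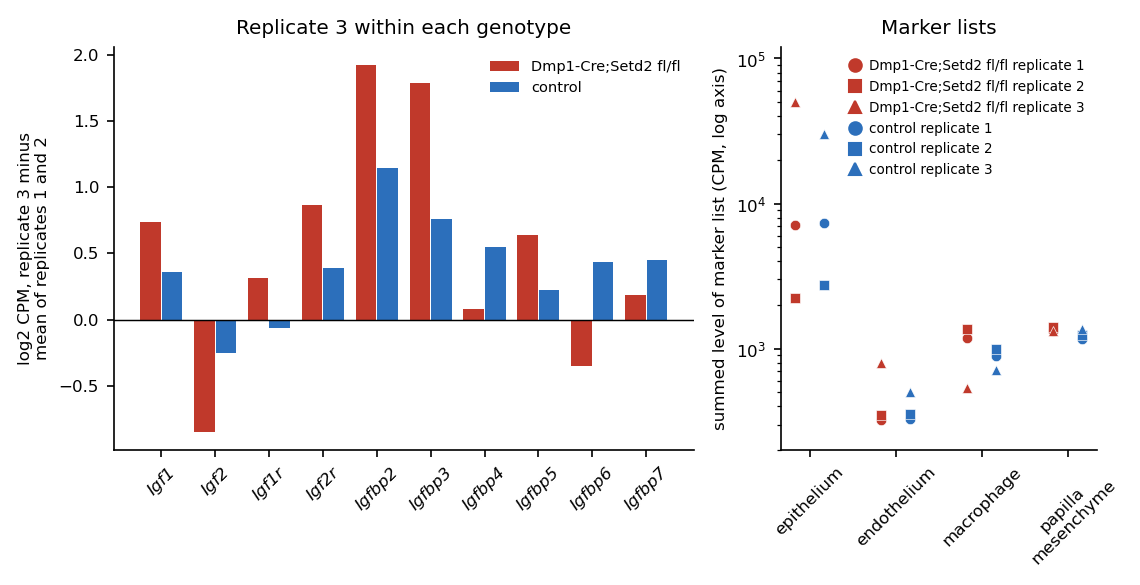
Left, log2 CPM of replicate 3 minus the mean of replicates 1 and 2 within each genotype, for each IGF family gene (Dmp1-Cre;Setd2 fl/fl red, control blue). Right, summed CPM of 4 marker lists in each library on a log axis, where replicate 3 (triangles) is highest for epithelium and endothelium and lowest for macrophages in both groups.

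Other genes of the pathway were counted in 9 lists. The calls in each list stand beside 1.1% of all genes tested called higher and 2.71% called lower by the same rule. Of 4 tested genes in a list of other IGF and insulin family genes, 0 were called. They were *Igfals*, *Insr*, *Insrr* and *Htra1*, which is also counted among the proteases below. The insulin receptor *Insr* was at 58.7, 53.7 and 71.8 CPM in *Dmp1*-Cre;*Setd2* fl/fl libraries, against 65.4, 62.3 and 68.0 CPM in controls, with a log2 fold change of -0.09 (edgeR adjusted p = 0.876). The acid-labile subunit gene *Igfals*, whose product joins IGF and IGFBP3 in the serum complex, was below 1 CPM in every library. Of 10 proteases of binding proteins and their inhibitors, 0 were called. The lowest p was that of *Mmp14*, a membrane-bound metalloproteinase, at 560, 504 and 690 CPM in *Dmp1*-Cre;*Setd2* fl/fl libraries, against 774, 848 and 913 CPM in controls. Every *Dmp1*-Cre;*Setd2* fl/fl library was below every control, and the log2 fold change of *Mmp14* was -0.53 (SE 0.15, unadjusted p = 0.0104, edgeR adjusted p = 0.625), just short of the fold threshold. *Mmp14* passed that threshold without *Dmp1*-Cre;*Setd2* fl/fl replicate 3 (-0.67), without control replicate 1 (-0.59) and without replicate 3 of both groups (-0.60, edgeR adjusted p = 0.0466). *Pappa*, which encodes the protease that cleaves IGFBP4, was at 7.27, 6.89 and 3.69 CPM in *Dmp1*-Cre;*Setd2* fl/fl libraries, against 3.82, 4.21 and 4.93 CPM in controls, and the groups overlapped.

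*H19*, the imprinted noncoding RNA expressed from the maternal copy of the *Igf2* locus, was the one called gene among 5 binders of *Igf2* mRNA and neighbours of *Igf2*. It was at 168, 161 and 202 CPM in *Dmp1*-Cre;*Setd2* fl/fl libraries, against 102, 108 and 121 CPM in controls. The groups were well apart, and replicate 3 was the highest of each. The log2 fold change of *H19* was 0.68 (SE 0.13, unadjusted p = 0.00119, edgeR adjusted p = 0.558), and leaving out replicate 3 of the *Dmp1*-Cre;*Setd2* fl/fl group gave 0.57, which ends the call by the fold threshold alone. The adjusted p of *H19* was under 0.05 with DESeq2 (0.00314), voom (0.00200), the block for replicate number (0.0281), without *Dmp1*-Cre;*Setd2* fl/fl replicate 3 (0.0458) and without replicate 3 of both groups (0.00871), and it was 0.137 to 1.00 in the other edgeR fits with no filter or with another single library left out. The *Igf2* mRNA binding proteins *Igf2bp1*, *Igf2bp2* and *Igf2bp3* had log2 fold changes of 0.80, 0.29 and 0.40, with edgeR adjusted p of 0.692, 0.697 and 0.759. All 5 genes of the list, among them *Igf2os*, which overlaps *Igf2*, had positive values, against 52.6% of all genes.

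Among 9 tested adaptors of the receptors, *Grb14* was called lower and 0 were called higher. *Grb14*, whose product binds the activated insulin receptor and inhibits it, was at 22.7, 20.9 and 53.6 CPM in *Dmp1*-Cre;*Setd2* fl/fl libraries, against 89.4, 90.2 and 66.3 CPM in controls. Replicate 3 of the *Dmp1*-Cre;*Setd2* fl/fl group was again the nearest to the controls. *Grb14* had a log2 fold change of -1.34 (SE 0.38, unadjusted p = 0.0101, edgeR adjusted p = 0.625). Blocking by replicate number, it was -1.46 and no longer called (edgeR unadjusted p = 0.0753), and with replicate 3 of both groups left out it was -2.03 (edgeR adjusted p = 1.27e-05). The adjusted p of *Grb14* was also under 0.05 with DESeq2 (0.0358), voom (0.000699) and the fit that left out replicate 3 of the *Dmp1*-Cre;*Setd2* fl/fl group (0.00126). *Sos1*, which encodes an activator of RAS, had a log2 fold change of 0.30 (edgeR unadjusted p = 0.0443), with no overlap of the groups. *Irs1* and *Irs2*, the main docking proteins of the receptor, were chosen for naming after their values were seen. *Irs1* was at 73.0, 62.6 and 31.7 CPM in *Dmp1*-Cre;*Setd2* fl/fl libraries, against 82.8, 79.7 and 59.4 CPM in controls, and *Irs2* was at 49.3, 58.7 and 94.8 CPM in *Dmp1*-Cre;*Setd2* fl/fl libraries, against 38.2, 38.6 and 78.4 CPM in controls. Replicate 3 of each group was lowest in *Irs1* and highest in *Irs2*, and the groups overlapped for both. Within each replicate number, however, the *Dmp1*-Cre;*Setd2* fl/fl library was below its control in *Irs1* and above it in *Irs2*. With all libraries and no block the log2 fold changes were -0.41 for *Irs1* and 0.39 for *Irs2* (edgeR unadjusted p = 0.225 and 0.323). With the block they were -0.47 and 0.41 (edgeR unadjusted p = 0.00947 and 0.00331, adjusted p = 0.168 and 0.109), short of the fold threshold.

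Downstream, 0 of 16 genes of PI3K and AKT signalling and 0 of 13 genes of mTOR and FOXO were called, with medians of 0.01 each on the log2 fold change scale. *Akt1* and *Akt2*, which encode AKT kinases and were named after their values were seen, had log2 fold changes of 0.11 and -0.01. *Inpp4b* and *Inppl1*, which encode phosphatases of the PI3K products, had log2 fold changes of -0.49 and -0.29 (edgeR unadjusted p = 0.0401 and 0.0436), and the FOXO factor gene *Foxo4* had 0.25 (edgeR unadjusted p = 0.0409), all at an adjusted p of 0.647 to 0.650. Of 11 transcripts known to be raised by FOXO factors, 10 had positive values, against 52.6% of all genes. Their median log2 fold change was 0.21, against 0.02 over all genes, and 1 was called higher, against 1.1% of all genes. That gene was *Klf15*, a transcription factor gene, at 21.9, 36.6 and 19.7 CPM in *Dmp1*-Cre;*Setd2* fl/fl libraries, against 15.5, 17.6 and 14.7 CPM in controls. Its log2 fold change was 0.71 (SE 0.25, unadjusted p = 0.0247, edgeR adjusted p = 0.626), and replicate 2 of the *Dmp1*-Cre;*Setd2* fl/fl group stood highest. Without that library the value for *Klf15* was 0.38, and leaving out control replicate 1 or 3 ended the call as well (edgeR unadjusted p = 0.0689 and 0.0714), as did voom at 0.45. The member of the list with a negative value was *Sesn3*, which encodes a stress-response protein that restrains mTOR signalling. It was at 202, 174 and 201 CPM in *Dmp1*-Cre;*Setd2* fl/fl libraries, against 255, 236 and 219 CPM in controls. Every *Dmp1*-Cre;*Setd2* fl/fl library was below every control, and the log2 fold change of *Sesn3* was -0.30 (SE 0.12, unadjusted p = 0.0370, edgeR adjusted p = 0.643), short of the fold threshold.

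Of 14 tested imprinted growth genes, a list that includes *Igf2*, *Igf2r* and *H19*, 1 was called higher (*H19*) and 1 lower. The lower one was *Meg3*, a noncoding RNA of the *Dlk1* locus, at 221, 133 and 153 CPM in *Dmp1*-Cre;*Setd2* fl/fl libraries, against 287, 262 and 264 CPM in controls. Every *Dmp1*-Cre;*Setd2* fl/fl library was below every control, and the log2 fold change of *Meg3* was -0.68 (SE 0.19, unadjusted p = 0.00962, edgeR adjusted p = 0.625), and leaving out replicate 2 of the *Dmp1*-Cre;*Setd2* fl/fl group gave -0.54, which ends the call. With voom *Meg3* was at -0.41 and not called, and with the block for replicate number it was at -0.71 (edgeR adjusted p = 0.0449). *Cdkn1c*, which encodes a cyclin-dependent kinase inhibitor and lies in the imprinted region of chromosome 7 that also holds *Igf2*, had a log2 fold change of 0.50, and *Peg3* had -0.37 (edgeR unadjusted p = 0.0133 and 0.0183), both short of the fold threshold. Of 6 genes of the growth hormone axis, 0 were called. The kinase gene *Jak2*, whose product signals from the growth hormone receptor, had the lowest p, with 69.4, 87.3 and 71.7 CPM in *Dmp1*-Cre;*Setd2* fl/fl libraries, against 55.8, 49.1 and 59.9 CPM in controls. The groups did not overlap, and the log2 fold change of *Jak2* was 0.47 (SE 0.13, unadjusted p = 0.00923, edgeR adjusted p = 0.625). *Jak2* was called with replicate 3 of both groups left out, at 0.59 (edgeR adjusted p = 0.0382). The receptor gene *Ghr* overlapped between groups, with a log2 fold change of 0.11.

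**Figure D5:**
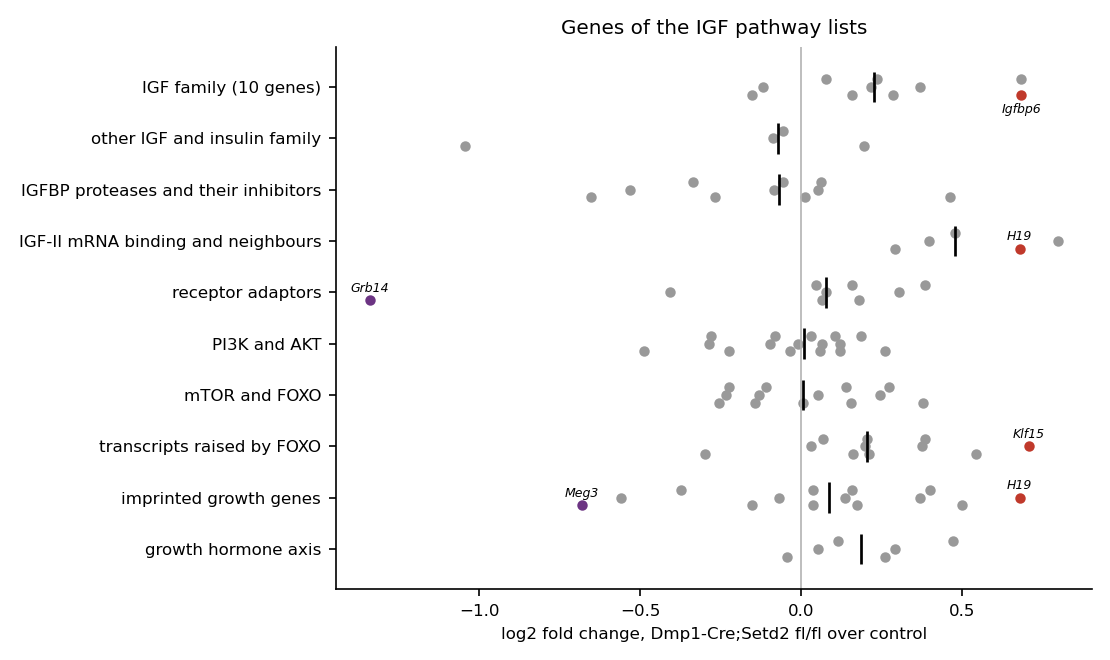
Log2 fold change, Dmp1-Cre;Setd2 fl/fl over control, of the 10 IGF family genes and of the tested genes of 9 pathway lists. Each dot is a gene, vertical bars are list medians, and named dots were called at the study's thresholds (red higher, purple lower), with H19 standing in 2 lists.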

How the data were processed

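Counts per gene were analysed from 6 mouse mDPC libraries. The authors aligned the reads with HISAT2, used HTSeq to count them per gene on either strand, and deposited these whole-number counts. GRCm39, Bowtie2 and DESeq2 are also named in the submitters' processing notes. Gene positions in the deposited table share a start or end with GRCm38.p6 for 47.4% of 24547 genes matched by symbol, and with GRCm39 for 1.3% of 30436 matched by ID. The deposited table also holds the authors' own comparison, with a mean signal of normalized counts, fold changes both as a ratio and as log2, and p-values. None of it was used. The table held 0 unused per-sample columns.

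The counts were filtered with filterByExpr (minimum count 10), scaled by TMM and tested by the robust quasi-likelihood F test of edgeR 4.0.16 under R 4.3.3, with Benjamini-Hochberg adjustment over 16519 genes. SE were derived from the log2 fold change and its F statistic. CPM per kilobase used exon lengths of GENCODE by Ensembl ID, and log2 CPM a prior count of 2. Alternatives were DESeq2 1.42.0, RLE scaling, library sizes that leave out the top 100 genes, no filter, at least 10 counts in all libraries, voom with quality weights (limma 3.58.1), a block for replicate number, leaving out each library or both replicate 3 libraries, an adjusted p under 0.1, and levels not divided by length. The fit was tested on simulated data.

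Replicate numbers came from the labels. Across genes, the deviations of libraries with the same number from their group means had correlations of 0.453, 0.465 and 0.663. Replicate 1 of the *Dmp1*-Cre;*Setd2* fl/fl group correlated with control replicate 2 at 0.455, and replicate 2 with control replicate 1 at 0.38. Only the pair of replicate 3 was thus set apart. The main fit had no pairing, and replicate number entered as a block in an alternative fit only. The members, lists and tests were chosen with earlier results of these data known. Genes eligible to be named were all members, up to 4 genes of smallest p in each pathway list, and genes overlapping or next to a member. P-values measure the spread between pools of animals. If each pooled replicate was a separate animal, pools shared animals and the p-values understate the spread between animals. What counted as a replicate is not stated.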

Additional observations from a re-analysis of the deposited data

How the results depend on the processing

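With the replicate number as a block, *Igfbp6* kept its call at a log2 fold change of 0.69 (edgeR unadjusted p = 0.0179, adjusted p = 0.203), no other member was called, and over all genes 339 (2.05%) were called higher and 722 (4.37%) lower, against 181 and 448 without the block. The block ended the call of *Grb14*, as given above, turned the direction of *Igfbp3* (-0.15), brought *H19* and *Meg3* under an adjusted p of 0.05, and changed no other call at the study's thresholds among the members and pathway genes named. At an adjusted p under 0.05 the block gave 161 genes.

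Genes called higher, and lower, over all genes numbered 458 and 1109 with voom and 750 and 1261 with replicate 3 of both groups left out. Without a filter 338 were called higher. The counts ranged from 83 to 677 higher and from 282 to 1161 lower when single libraries were left out. Genes at an adjusted p under 0.05 numbered 139 with DESeq2, 6 without a filter, 1311 with voom and 1138 with both replicate 3 libraries left out, and 0 to 561 with single libraries left out. No member passed an adjusted p of 0.05 in any of these fits. Members called numbered 0 to 2 higher and 0 to 1 lower when single libraries were left out. Directions changed for *Igf1* (-0.0711 to 0.357 over the fits with single libraries left out), *Igf2r* (-0.494 to 0.0784), *Igfbp2* (-0.26 to 1.16) and *Igfbp3* (-0.78 to 0.40), and also for *Igfbp3* with voom (-0.29) and with both replicate 3 libraries left out (-0.47). Near 0, *Akt2* changed sign with voom (0.0118), with both replicate 3 libraries left out (0.0210) and when single libraries were left out (-0.0558 to 0.0419), and *Insr* when single libraries were left out (-0.216 to 0.000137). Voom ended the calls of *Meg3* (-0.41) and *Klf15* (0.45). Calls also depended on single libraries for *H19*, *Klf15*, *Meg3*, *Mmp14*, *Inpp4b*, *Cdkn1c*, *Igf2os* and *Irs2*. Shares and ratios not divided by exon length gave exact p of 0.3 to 1.0. The cause of these changes was not tested. Limits of depth were not tested, and *Igfbp6* rested on 41 to 111 counts per library.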
